A study of Caenorhabditis elegans with 9 samples.

Results

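The base excision repair genes described here are 9 genes of C. elegans: nth-1, ung-1, exo-3, apn-1, parp-1 (also written pme-1), parp-2 (pme-2), ndx-1, ndx-2 and ndx-4. They were taken by name, through the gene symbol that the platform annotation gives each probe set and not by a threshold on their values, although earlier results of these data were known when they were chosen. All 9 were found. They are read by 10 of the 22548 probe sets tested, since parp-2 has a pair of them, and they are 9 of 17138 genes that at least 1 probe set measures alone. Expression was measured on Affymetrix C. elegans arrays in 4 strains: the Bristol wild type N2 (2 arrays), nth-1(ok724) (3 arrays), xpa-1(ok698) (2 arrays) and the double mutant, nth-1;xpa-1, with both alleles (2 arrays). The mutants carry deletion alleles according to the study's methods, although the series' own design text calls them RNAi mutants, and the double mutant was built for the study. All strains were backcrossed shortly before use and were grown under the same conditions on plates seeded with the bacterial strain HT115(DE3) until the food was gone. Each array holds RNA from a population of mixed stages, with no age given, and the methods speak of more replicates per strain than the arrays at hand. In RNA from whole populations, fewer cells of a type and less RNA per cell cannot be told apart.

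Base excision repair removes small base lesions, such as oxidized, deaminated or alkylated bases. A DNA glycosylase cuts out the damaged base, an AP endonuclease nicks the strand at the resulting abasic site, and a polymerase and a ligase refill and seal the gap, with poly(ADP-ribose) polymerases binding the strand breaks that arise on the way. Nudix hydrolases act earlier, by removing oxidized or otherwise unwanted nucleotides from the pool from which DNA is made. nth-1 and xpa-1 stand for different excision pathways: NTH-1 is the glycosylase that removes oxidized pyrimidines, and XPA-1 belongs to nucleotide excision repair, which takes out bulky, helix-distorting lesions.

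Values are log2 expression values. The xpa-1 transcript lay between 10.35 and 10.69 in the 5 arrays of N2 and nth-1 and between 5.66 and 6.59 in the 4 arrays of xpa-1 and the double mutant, as their labels require. Replicate arrays correlated over all probe sets with r of 0.980 to 0.994, except nth-1 replicate 3, whose r with the other nth-1 arrays was 0.950 and 0.952. The hybridization control BioC, which is added before hybridization and does not come from the worms, read 9.63 to 10.04 on both N2 arrays, both double mutant arrays and xpa-1 replicate 1, and 8.20 to 8.29 on the 3 nth-1 arrays and xpa-1 replicate 2. Results are therefore given with and without nth-1 replicate 3 and with the BioC level as a block where that matters.

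Against N2, 3 of the 9 genes changed in the double mutant: exo-3 and ung-1 fell and ndx-1 rose, where 8.64% of all probe sets passed the same test. In xpa-1, 1 of the 9 changed, ndx-4, which fell, where 10.5% of all probe sets passed, so this count is close to the background. In nth-1, 0 of the 9 passed in the limma fit, where 10% of all probe sets did, and without nth-1 replicate 3 the count was 4 beside 26.9% of all probe sets, with ung-1 and exo-3 higher and parp-1 and parp-2 lower. At an unadjusted p under 0.05 the nth-1 count was 3 of 9, where 27.2% of all probe sets passed. The median log2 difference from N2 over the 9 genes was 0.08 in nth-1, 0.20 in xpa-1 and -0.35 in the double mutant, beside -0.05, -0.03 and 0.05 over all probe sets. The 3 comparisons share the same N2 arrays.

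**Figure D1:**
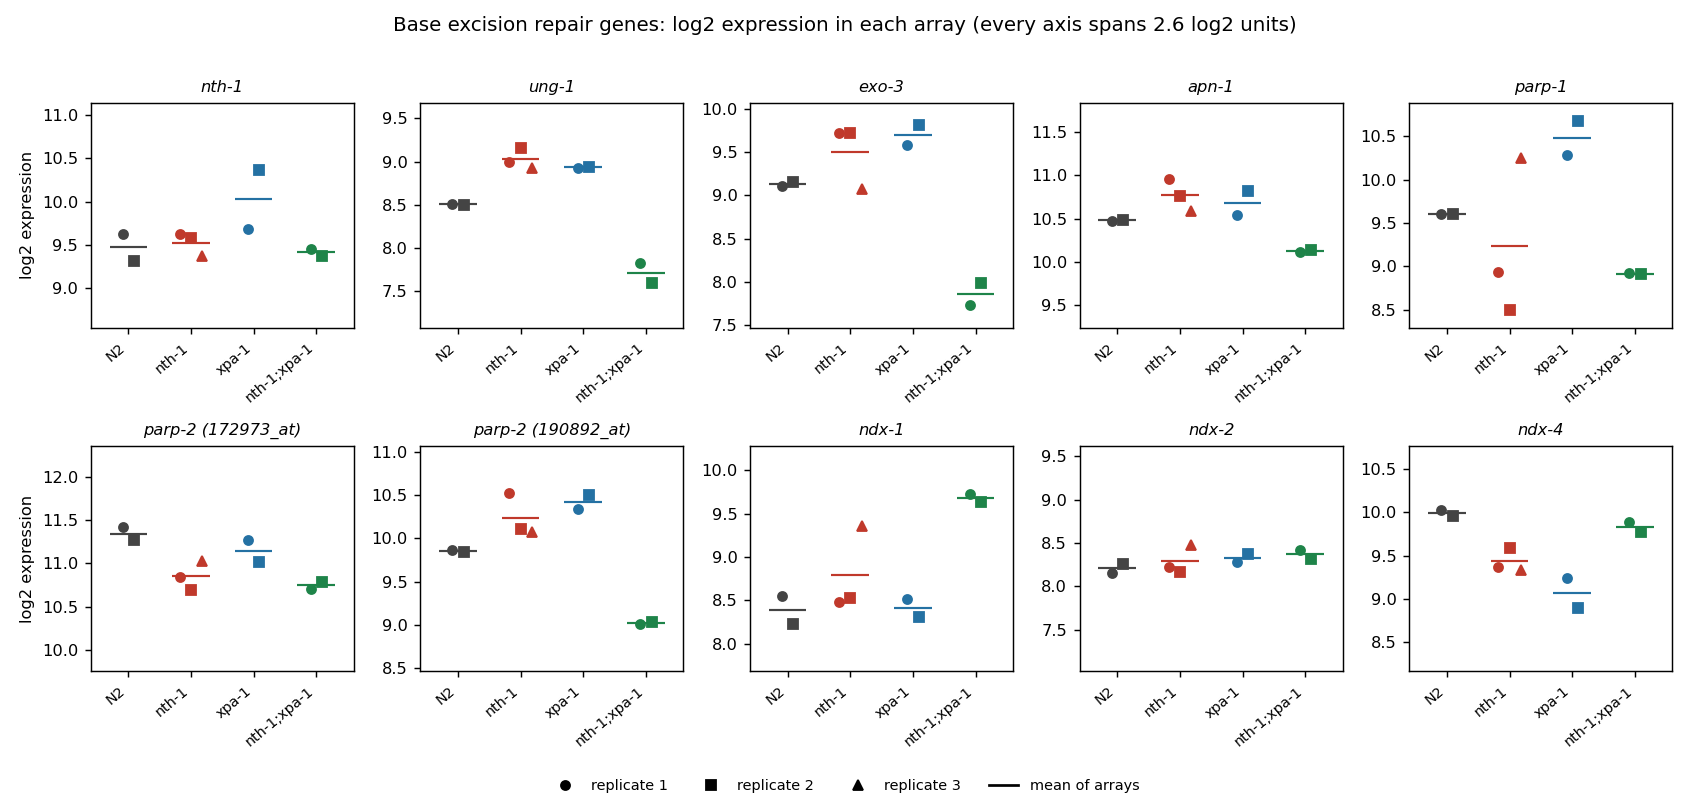
Log2 expression (vertical axis, each spanning the same number of log2 units) of the 10 probe sets in the 9 arrays, by strain (horizontal axis), with each array as a point and the mean of a strain as a line. ung-1, exo-3, apn-1 and the 190892_at probe set of parp-2 were lowest in both nth-1;xpa-1 arrays, ndx-1 was highest there, ndx-4 was lowest in xpa-1, and ndx-2 kept within 8.16 to 8.48 in every array.

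The glycosylase genes gave different pictures. The nth-1 probe set read 9.63 and 9.32 in N2, 9.63, 9.58 and 9.37 in the nth-1 mutant, 9.69 and 10.37 in xpa-1 and 9.46 and 9.38 in the double mutant. The strain with the deletion in the gene thus lay within the range of the wild type, and where the probes lie relative to the deleted stretch is not known here, so this probe set checks neither the allele nor the amount of functional transcript. Its highest value was xpa-1 replicate 2, and the xpa-1 arrays lay apart from those of N2. The difference of xpa-1 from N2 was 0.56 log2 units (SE 0.26) with an adjusted p of 0.2, and none of the 6 contrasts passed for this gene.

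ung-1 encodes the uracil-DNA glycosylase, which removes uracil that arises in DNA by cytosine deamination or misincorporation. It read 8.51 and 8.50 in N2, 9.0, 9.16 and 8.92 in nth-1, 8.93 and 8.94 in xpa-1 and 7.83 and 7.60 in the double mutant. Both double mutant arrays lay below all others, both single mutants lay above N2, and the single mutants overlapped each other. The level in the double mutant was 1.72-fold below N2, a log2 difference of -0.79 (SE 0.19, adjusted p = 0.037). Against the single mutants the gap was wider, with -1.31 (SE 0.17, adjusted p = 0.0011) against nth-1 and -1.22 (SE 0.19, adjusted p = 0.002) against xpa-1. The single mutants differed from N2 by 0.52 (SE 0.17, adjusted p = 0.089) in nth-1 and 0.43 (SE 0.19, adjusted p = 0.17) in xpa-1, neither past the threshold, and the former passed without nth-1 replicate 3 (0.58, adjusted p = 0.023). The change against N2 did not pass without either double mutant array (adjusted p = 0.16 and 0.26), without either N2 array (0.22 and 0.23) or without nth-1 replicate 1 (0.05 after rounding), while both comparisons with the single mutants passed whichever array was left out.

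The AP endonuclease genes fell together in the comparison of the double mutant with nth-1. exo-3 encodes the worm's homolog of bacterial exonuclease III and human APE1, and apn-1 encodes the enzyme of the endonuclease IV family. exo-3 read 9.11 and 9.15 in N2, 9.72, 9.72 and 9.07 in nth-1, 9.58 and 9.81 in xpa-1 and 7.73 and 7.99 in the double mutant. The double mutant lay far below every other array, xpa-1 lay above N2, and nth-1 overlapped N2 because replicate 3 was as low as the wild type while the other nth-1 arrays were as high as xpa-1. The double mutant was 2.4-fold below N2 (-1.27, SE 0.26, adjusted p = 0.025), 3.18-fold below nth-1 (-1.64, SE 0.24, adjusted p = 0.0017) and 3.56-fold below xpa-1 (-1.83, SE 0.26, adjusted p = 0.0016). These were the lowest log2 differences of any of the 10 probe sets in each of the 3 comparisons. The change against N2 did not pass without either double mutant array (adjusted p = 0.19 and 0.14) or either N2 array (0.16 and 0.18), and the comparisons with the single mutants passed whichever array was left out. In the single mutants exo-3 differed from N2 by 0.37 (SE 0.24, adjusted p = 0.36) in nth-1 and 0.56 (SE 0.26, adjusted p = 0.2) in xpa-1, and without nth-1 replicate 3 these became 0.59 (adjusted p = 0.027) and 0.56 (adjusted p = 0.03).

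apn-1 read 10.47 and 10.49 in N2, 10.96, 10.76 and 10.59 in nth-1, 10.54 and 10.82 in xpa-1 and 10.12 and 10.14 in the double mutant. The order of the strains was that of ung-1, with a smaller spread: the strain means spanned 0.64 log2 units for apn-1, 1.31 for ung-1 and 1.83 for exo-3, and a median of 0.66 over all probe sets. Both double mutant arrays lay below all others, and the single mutants overlapped each other and lay above N2. The difference of the double mutant was -0.35 (SE 0.19, adjusted p = 0.29) from N2, -0.64 (SE 0.17, adjusted p = 0.021) from nth-1 and -0.55 (SE 0.19, adjusted p = 0.053) from xpa-1, so that of these 3 the comparison with nth-1 passed. That call was lost without nth-1 replicate 1 (adjusted p = 0.059), without either double mutant array (0.12 and 0.11), after quantile normalization (0.083), in a fit of those strains alone (0.053) and with the BioC level as a block (0.5).

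The poly(ADP-ribose) polymerases bind DNA breaks and modify proteins beside them. parp-1 read 9.60 and 9.61 in N2, 8.94, 8.50 and 10.25 in nth-1, 10.28 and 10.68 in xpa-1 and 8.92 and 8.91 in the double mutant. The nth-1 arrays spanned 1.75 log2 units, the widest range within a strain among the 10 probe sets: replicates 1 and 2 lay below N2 and replicate 3 lay above it. Both xpa-1 arrays were above every other array, though replicate 1 only just above nth-1 replicate 3, and the double mutant was below N2. The double mutant was 2.99-fold below xpa-1 (-1.56, SE 0.48, adjusted p = 0.033), a call that was lost without any single array of the double mutant, xpa-1 or N2 (adjusted p from 0.057 to 0.15) and with the BioC level as a block (-1.36, adjusted p = 0.15). Within the arrays of the higher BioC level that difference was -1.36, given here without a p-value, since xpa-1 is a single array there.

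Against N2, parp-1 differed by -0.37 (SE 0.44, adjusted p = 0.63) in nth-1, 0.88 (SE 0.48, adjusted p = 0.27) in xpa-1 and -0.69 (SE 0.48, adjusted p = 0.41) in the double mutant. Leaving out nth-1 replicate 3 changed all of these calls. The differences then passed at -0.89 in nth-1 (adjusted p = 0.011), 0.88 in xpa-1 (0.01) and -0.69 in the double mutant (0.03). In these comparisons 26.9%, 28.6% and 26.2% of all probe sets then passed. The xpa-1 and double mutant differences do not involve that array and did not move, so there only the spread in the fit and the p-values changed. The difference between the double mutant and nth-1 turned from -0.32 (adjusted p = 0.6) to 0.20 (adjusted p = 0.44) without that array. On nth-1 replicate 3 the summed level of 9 germ line markers was 14749, between those of the other nth-1 arrays (13804 and 15652), while that of 4 yolk genes was 39560, below every N2, xpa-1 and other nth-1 array. This array also stood apart from the other nth-1 arrays in the sums of 6 neuronal genes (11325 beside 7481 and 6244), 4 hypodermal genes (6684 beside 4805 and 4333) and 6 sperm genes (1084 beside 2178 and 2087). The part of any of these in the parp-1 level was not tested.

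parp-2 is read by a pair of probe sets that did not move alike. The 172973_at probe set, the brighter one, read 11.42 and 11.27 in N2, 10.84, 10.69 and 11.03 in nth-1, 11.27 and 11.02 in xpa-1 and 10.71 and 10.79 in the double mutant. The 190892_at probe set read 9.86 and 9.84 in N2, 10.52, 10.11 and 10.07 in nth-1, 10.34 and 10.50 in xpa-1 and 9.01 and 9.03 in the double mutant. By the first, N2 was the highest strain and nth-1 and the double mutant overlapped. By the other, both single mutants lay above N2 and the double mutant lay below every other array. Over the 9 arrays the correlation between them was r = 0.31.

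Both probe sets of parp-2 had a lower mean in the double mutant than in N2, with a difference of -0.60 (SE 0.18, adjusted p = 0.073) for 172973_at, which did not pass but did so without nth-1 replicate 3 (-0.60, adjusted p = 0.013) and in a fit of these strains alone (-0.59, 0.00012), and -0.83 (SE 0.21, adjusted p = 0.046) for 190892_at, which passed. The latter call was close to the threshold and was lost with quantile normalization (adjusted p = 0.052), with the BioC level as a block (0.052), and without nth-1 replicate 2, either xpa-1 array, either double mutant array or either N2 array (0.052 to 0.25). Against the single mutants, 190892_at fell in the double mutant, with a difference of -1.21 (SE 0.19, adjusted p = 0.0023) from nth-1 and -1.40 (SE 0.21, adjusted p = 0.0019) from xpa-1, and both calls held whichever array was left out. For 172973_at these differences were -0.10 (SE 0.16, adjusted p = 0.65) and -0.40 (SE 0.18, adjusted p = 0.12). In the nth-1 mutant the probe sets differed from N2 in opposite directions, -0.49 (SE 0.16, adjusted p = 0.091) for 172973_at and 0.38 (SE 0.19, adjusted p = 0.24) for 190892_at, and the former passed without nth-1 replicate 3 (-0.58, adjusted p = 0.015).

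The Nudix hydrolases included the member that rose and one that fell in a single mutant. ndx-1, whose product acts on oxidized guanine nucleotides, read 8.55 and 8.23 in N2, 8.48, 8.53 and 9.36 in nth-1, 8.51 and 8.31 in xpa-1 and 9.73 and 9.63 in the double mutant. Both double mutant arrays lay above all others, nth-1 replicate 3 came next, and the remaining 6 arrays of the other strains shared the range from 8.23 to 8.55. The double mutant was 2.43-fold above N2 (1.29, SE 0.31, adjusted p = 0.038) and 2.41-fold above xpa-1 (1.27, SE 0.31, adjusted p = 0.013), and it was above nth-1 by 0.89 (SE 0.28, adjusted p = 0.036). The call against N2 was lost without either double mutant array (adjusted p = 0.22 and 0.2), either N2 array (0.16 and 0.25) or xpa-1 replicate 1 (0.05 after rounding). The call against nth-1 was lost without any of 6 arrays, namely nth-1 replicates 1 and 2 and every array of the double mutant and N2 (0.058 to 0.17), in a fit of those strains alone (0.082) and with the BioC level as a block (0.69, adjusted p = 0.47). The call against xpa-1 was lost without either double mutant array or xpa-1 replicate 2 (0.065 to 0.079) and with the BioC level as a block (1.17, adjusted p = 0.066).

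ndx-4, whose product hydrolyzes oxidized guanine nucleotides and diadenosine tetraphosphate, read 10.03 and 9.96 in N2, 9.37, 9.59 and 9.34 in nth-1, 9.24 and 8.90 in xpa-1 and 9.89 and 9.77 in the double mutant. No strains overlapped: N2 was highest, followed closely by the double mutant, then nth-1, then xpa-1. xpa-1 was 1.89-fold below N2 (-0.93, SE 0.21, adjusted p = 0.027), whereas the difference was -0.56 (SE 0.19, adjusted p = 0.096) in nth-1 and -0.16 (SE 0.21, adjusted p = 0.67) in the double mutant, with an interval from -0.63 to 0.30. The double mutant was above xpa-1 by 0.76 (SE 0.21, adjusted p = 0.021). The xpa-1 call was lost without xpa-1 replicate 2 (-0.75, adjusted p = 0.12), without either N2 array (0.19 and 0.16), without either double mutant array (0.064 for each) and with the BioC level as a block (-0.76, adjusted p = 0.12). The double mutant's call against xpa-1 was lost without either of its own arrays (adjusted p = 0.13 and 0.086) or xpa-1 replicate 2 (0.096) and with the BioC level as a block (0.59, adjusted p = 0.098). Among the arrays of the higher BioC level, xpa-1 replicate 1 lay -0.75 from N2, given here without a p-value, since it is a single array.

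ndx-2, another Nudix hydrolase, read 8.16 and 8.26 in N2, 8.23, 8.17 and 8.48 in nth-1, 8.28 and 8.37 in xpa-1 and 8.42 and 8.32 in the double mutant. Its strain means spanned 0.16 log2 units, less than the 0.31 among the nth-1 arrays alone. The differences from N2 were 0.08 in nth-1, 0.11 in xpa-1 and 0.16 in the double mutant, with 95% intervals that ran from -0.30 at the lowest to 0.58 at the highest.

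**Figure D2:**
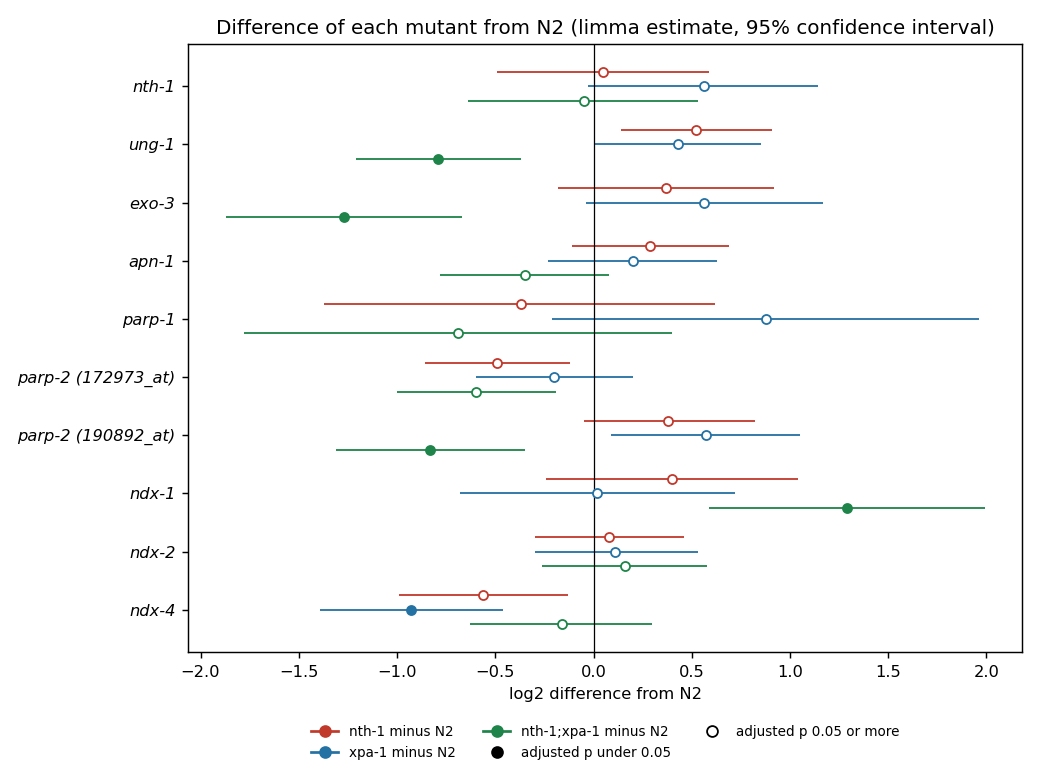
Log2 difference of each mutant from N2 (horizontal axis) for each probe set (vertical axis), with the limma 95% confidence interval as a line and a filled point where the adjusted p is under 0.05. Of the 30 differences, 5 are filled: ung-1 (-0.79), exo-3 (-1.27), parp-2 by 190892_at (-0.83) and ndx-1 (1.29) in nth-1;xpa-1, and ndx-4 (-0.93) in xpa-1.

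Both N2 arrays and both double mutant arrays have the higher BioC level, so their comparison does not cross it. Within those arrays and xpa-1 replicate 1, the difference of the double mutant from N2 was -1.27 for exo-3 (adjusted p = 1.1e-06), -0.79 for ung-1 (0.00011), 1.29 for ndx-1 (1.3e-06), -0.83 and -0.59 for 190892_at and 172973_at of parp-2 (1.9e-05 and 0.00011), -0.69 for parp-1 (0.00013) and -0.35 for apn-1 (0.011). The spread in this fit comes only from the replicate pairs of N2 and the double mutant, moderated over all probe sets, and holds none of the wider spread among the nth-1 arrays. In a fit of N2 and the double mutant alone, whose spread has the same source, 43.7% of all probe sets passed. The groups did not overlap for 4 of the 9 genes in nth-1, 7 in xpa-1 and 8 in the double mutant when each was set against N2, where this held for 44.5%, 63.2% and 69.0% of all probe sets. By the ratio of means used in the study, with a threshold of 1.8 in either direction, 0 of 9 passed in nth-1 (9.07% of all probe sets), 2 in xpa-1, parp-1 at 1.85 and ndx-4 (12.4%), and 2 in the double mutant, exo-3 and ndx-1 (12.0%).

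The double mutant was also set against each single mutant, which asks how the second loss changed each gene. Against nth-1, 4 of the 9 genes passed, where 36.7% of all probe sets did: ung-1, exo-3 and apn-1 fell and ndx-1 rose. Against xpa-1, 5 of 9 passed, where 34.8% of all probe sets did: ung-1, exo-3 and parp-1 fell and ndx-1 and ndx-4 rose. The groups did not overlap for 5 of 9 genes against nth-1 (60.3% of all probe sets) and 8 of 9 against xpa-1 (73.1%). With the BioC level as a block, which sets the nth-1 arrays apart from those of the double mutant, 0 of 9 passed against nth-1 and 2 against xpa-1, ung-1 and exo-3. In that fit 1077 of all 22548 probe sets passed against nth-1 and 5646 against xpa-1, so fewer passed over the whole array too. The log2 differences from nth-1 were then -1.30 for ung-1 (adjusted p = 0.059), -1.41 for exo-3 (0.11) and -1.05 for 190892_at of parp-2 (0.12). The share of the BioC level in these differences was not tested beyond this block.

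The interaction is the change in the double mutant minus the sum of the changes in the single mutants, on the log2 scale. It passed for 4 of the 9 genes, or 5 where 190892_at stands for parp-2. Of all probe sets 39.4% passed, so the count of 4 is close to the background. It was -1.74 (SE 0.25, adjusted p = 0.0012) for ung-1, -2.21 (SE 0.36, adjusted p = 0.0019) for exo-3, -0.84 (SE 0.26, adjusted p = 0.031) for apn-1 and 1.32 (SE 0.28, adjusted p = 0.0063) for ndx-4, and it was -1.78 (SE 0.29, adjusted p = 0.0019) for 190892_at of parp-2. For ung-1, exo-3 and 190892_at the means of both single mutants lay above N2 and that of the double mutant below it, and for ndx-4 the single mutants lay below N2 and the double mutant between them and N2. These calls held whichever array was left out, except that of apn-1, which was lost in 7 of the 9 cases (adjusted p up to 0.1) and after quantile normalization (-0.58, adjusted p = 0.15). With the BioC level as a block none of them passed (ung-1 -1.73, adjusted p = 0.069, exo-3 -1.86, 0.13, ndx-4 0.81, 0.31), where 6.34% of all probe sets did. The median interaction over all probe sets was 0.17, and quantile normalization brought it to 0.00.

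**Figure D3:**
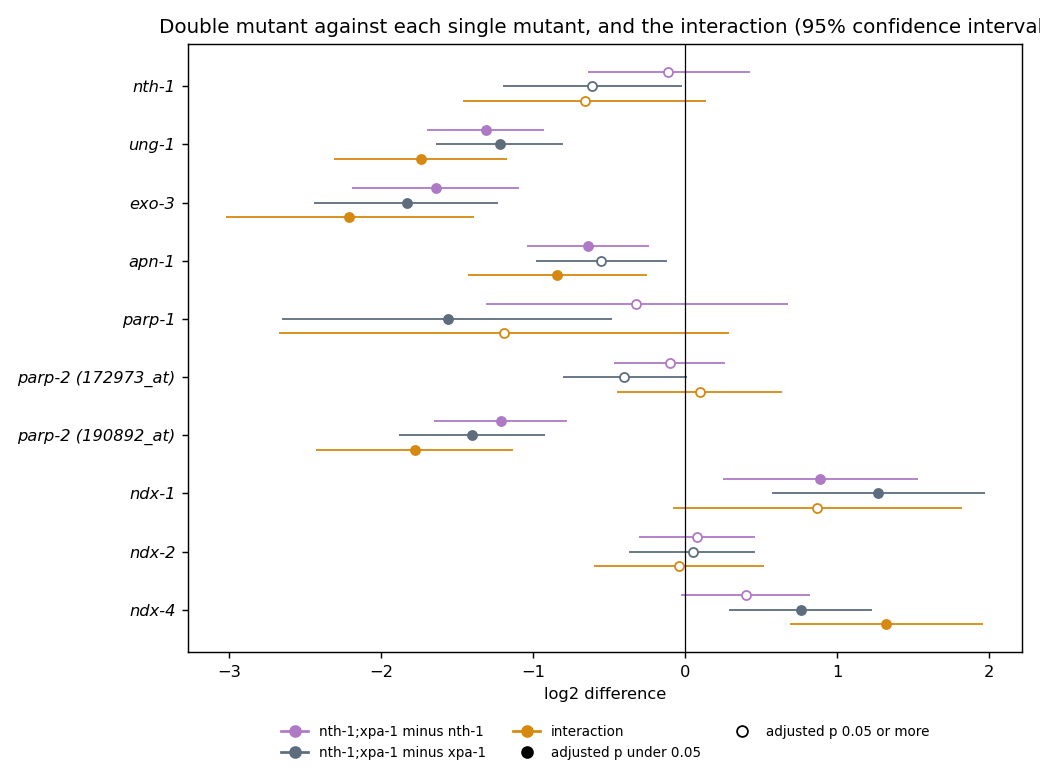
Log2 difference of nth-1;xpa-1 from each single mutant, and the interaction (horizontal axis), for each probe set (vertical axis), with 95% confidence intervals as lines and filled points where the adjusted p is under 0.05. exo-3 lies farthest to the left, at -1.64, -1.83 and -2.21, and ndx-1 and ndx-4 lie to the right of 0.

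Over the 9 arrays, ung-1, exo-3, apn-1 and the 190892_at probe set of parp-2 ran close together, with Pearson's r from 0.91 to 0.97 for their 6 pairs. ndx-1 ran against them, with r of -0.87 to exo-3 and -0.71 to ung-1. parp-1 followed none of them, with r of 0.34 to ung-1 and 0.37 to exo-3, and its highest r was 0.63, with 172973_at of parp-2. The points are 9 arrays in 4 strains, and arrays of a strain share its mean, so the r is a description with no test.

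**Figure D4:**
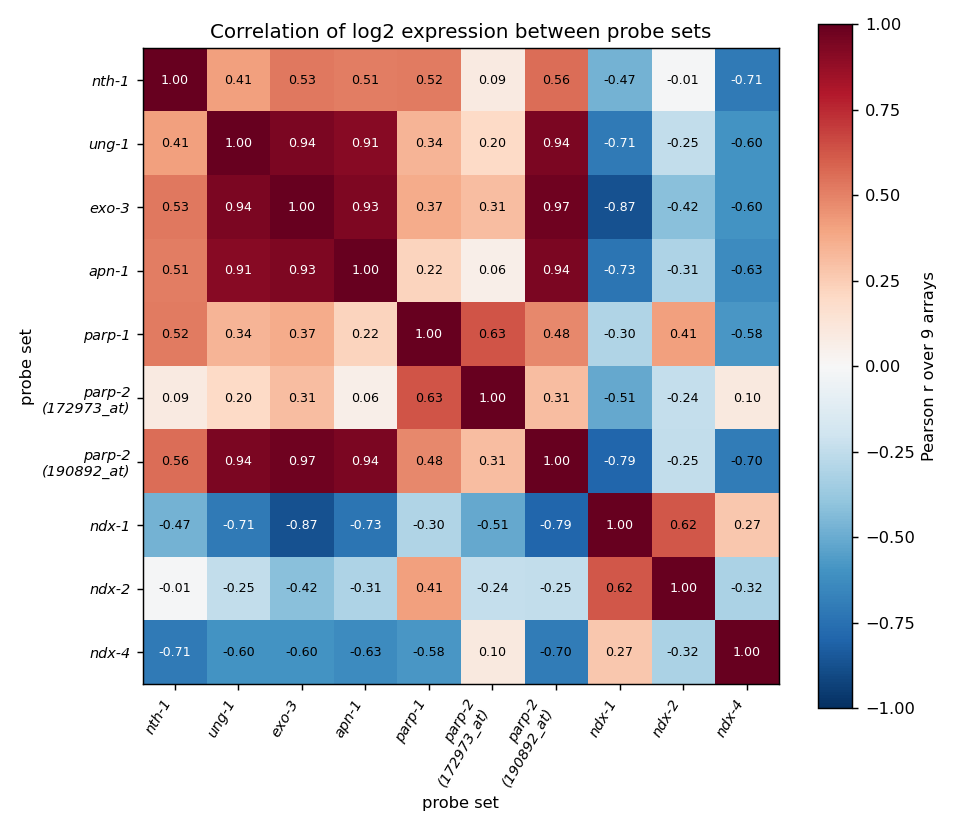
Pearson's r of log2 expression over the 9 arrays between each pair of probe sets (both axes), from -1 in blue to 1 in red. The block of ung-1, exo-3, apn-1 and parp-2 by 190892_at shows r between 0.91 and 0.97, and the row of ndx-1 is negative against these.

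Among 17137 other genes, those whose levels over the 9 arrays ran most like each member were named by Pearson's r. They were C17H11.4 (0.993) and tipn-1 (0.992) for ung-1, M02D8.5 (0.994) and tcab-1 (0.989) for exo-3, and T23B3.1 (0.995) and penr-1 (0.989) for apn-1. For parp-1 they were sap-49 (0.984) and patr-1 (0.983), and for parp-2, by 172973_at, akt-1 (0.946) and math-21 (0.944). For ndx-1 they were arrd-17 (0.988) and aakg-2 (0.983), for ndx-2 magi-1 (0.951) and nsy-4 (0.950), for ndx-4 T13B5.9 (0.985) and gtf-2H5 (0.982), and for nth-1 Y41C4A.1 (0.942) and cki-2 (0.919). With so many genes and 9 arrays, high values arise readily.

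The steps after the incision rely largely on general replication proteins. A list of 12 genes of synthesis, flap cutting and ligation was read beside the members. It holds the flap endonuclease crn-1, the sliding clamp pcn-1, the clamp loader subunits rfc-1 to rfc-4, the single-strand binding proteins rpa-1 and rpa-2, the ligase lig-1 and the polymerase genes pold-1, pole-1 and polq-1. Against N2, 7 of 12 fell in the double mutant and 0 rose, where 4.40% of all probe sets were lower, with a list median of -0.75 beside 0.05 over all probe sets. crn-1 fell from 9.79 and 9.78 in N2 to 8.83 and 8.84 in the double mutant (-0.95, SE 0.21, adjusted p = 0.032). pcn-1 fell from 10.29 and 10.15 to 9.16 and 8.96 (-1.16, SE 0.21, adjusted p = 0.015). rpa-1 fell from 10.03 on both arrays to 8.98 and 9.02 (-1.03, SE 0.25, adjusted p = 0.039). The clamp loader genes rfc-2, rfc-3 and rfc-4 and the polymerase gene polq-1 made up the rest, and lig-1 read -0.62 (SE 0.17, adjusted p = 0.06). None of the 12 passed in this comparison without either double mutant array or either N2 array.

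In xpa-1, 3 of the 12 rose against N2, where 3.89% of all probe sets were higher: pold-1, which went from 10.35 and 10.49 to 11.49 and 11.21 (0.93, SE 0.20, adjusted p = 0.023), pole-1 (1.10, SE 0.30, adjusted p = 0.048) and rfc-1 (0.77, SE 0.20, adjusted p = 0.045). The count was 0 without any single array of xpa-1, the double mutant or N2 and with the BioC level as a block. Of the nth-1 arrays, leaving out replicate 1 gave 1 and leaving out replicate 3 gave 6. In nth-1, 0 of 12 passed in the limma fit. All 12 were lower in the double mutant than in nth-1 (list median -0.80, all probe sets 0.13) and lower than in xpa-1 (-1.12, all probe sets 0.11), where 36.7% and 34.8% of all probe sets passed in either direction. With the BioC level as a block these counts were 0 and 11, where 1077 and 5646 of all 22548 probe sets passed. Without double mutant replicate 1 or 2 the count against nth-1 was 8 and 7, and that against xpa-1 was 9 in both cases.

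**Figure D5:**
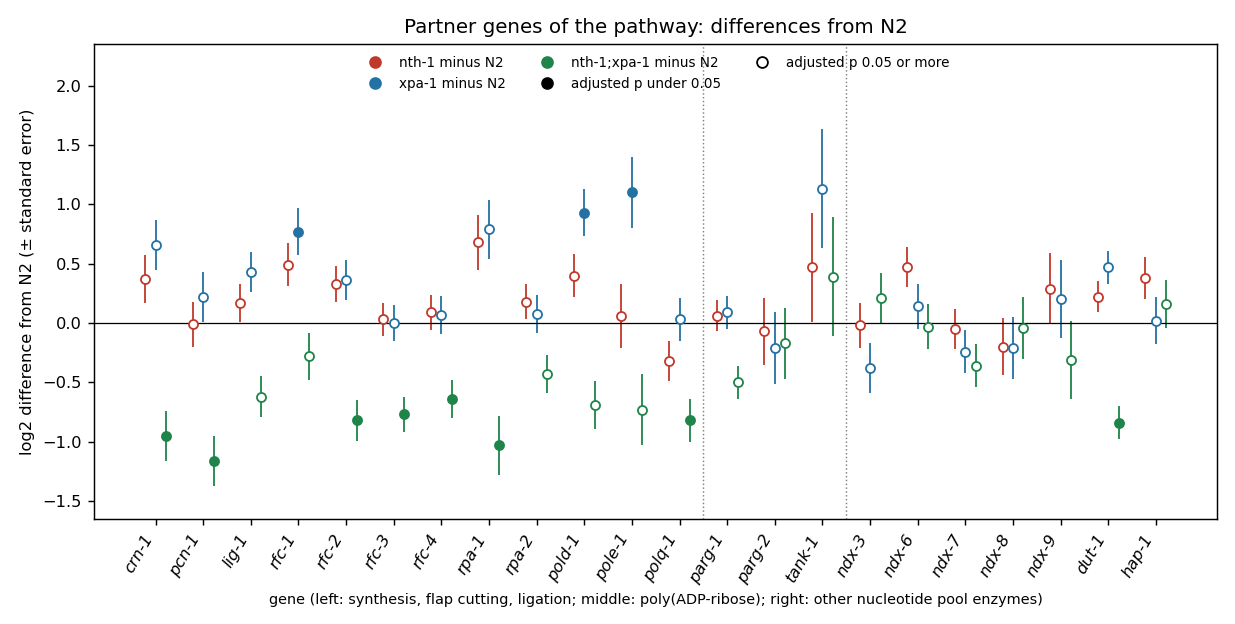
Log2 difference from N2 (vertical axis) of the partner genes (horizontal axis, grouped by role and parted by dotted lines), with standard errors as lines and filled points where the adjusted p is under 0.05. All 12 genes of synthesis, flap cutting and ligation lie below 0 in nth-1;xpa-1, 7 of them filled, and in xpa-1 pold-1, pole-1 and rfc-1 are filled above 0.

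The other partner lists cover poly(ADP-ribose) turnover and the nucleotide pool. Of 3 genes of poly(ADP-ribose) turnover, parg-1, which removes the polymer, was lower in the double mutant than in nth-1 (-0.56, SE 0.13, adjusted p = 0.011) and xpa-1 (-0.58, SE 0.14, adjusted p = 0.014). Both calls were lost without either double mutant array, the former also with the BioC level as a block and the latter without xpa-1 replicate 1, and 0 of 3 passed in any mutant against N2. tank-1, a tankyrase-related gene, read 9.64 and 9.79 in N2, 9.86, 9.41 and 11.29 in nth-1, 10.73 and 10.96 in xpa-1 and 10.10 and 10.12 in the double mutant, so that within nth-1 the third replicate was the high one, as it was for parp-1. Its difference in xpa-1 was 1.13 (SE 0.50, adjusted p = 0.18). Of 7 other nucleotide pool enzymes, dut-1, the dUTPase that keeps uracil out of new DNA, fell in the double mutant from 11.96 and 12.06 in N2 to 11.24 and 11.11 (-0.84, SE 0.14, adjusted p = 0.011). None of the 7 passed in this comparison without either double mutant array or either N2 array. dut-1 was also lower than in nth-1 (-1.05, SE 0.13, adjusted p = 0.0008) and xpa-1 (-1.30, SE 0.14, adjusted p = 0.00052). Against N2, 0 of the 7 passed in either single mutant.

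The summed levels of germ line markers were also lowest in the double mutant, and they were highest in xpa-1. In nth-1 they overlapped N2, whereas ung-1 and apn-1 lay above N2 there. The summed unlogged level of 9 germ line genes was 13769 to 14597 in N2, 13804 to 15652 in nth-1, 19752 to 20791 in xpa-1 and 8901 to 9413 in the double mutant. Of these 9, 4 fell in the double mutant and 3 rose in xpa-1 against N2, where 4.40% of all probe sets were lower and 3.89% were higher. The sum of 8 oocyte and maternal genes was 27740 to 28991 in N2, 25447 to 32017 in nth-1, 41916 to 42380 in xpa-1 and 17556 to 18897 in the double mutant, with 3 of 8 falling in the double mutant and 3 rising in xpa-1. The calls in the double mutant on both lists were lost without either double mutant array or either N2 array. Without nth-1 replicate 3, all 8 oocyte and maternal genes and 8 of the 9 germ line genes fell in it. In that fit 26.2% of all probe sets passed in either direction. With the BioC level as a block the xpa-1 counts were 0 on both lists, where 3.36% of all probe sets passed. All of these xpa-1 calls were also lost without either N2 array and without xpa-1 replicate 2. The sum of 5 body wall muscle genes was 6417 to 7041 in N2, 5426 to 7099 in nth-1, 7496 to 11671 in xpa-1 and 13589 to 14263 in the double mutant. Of these 5, 2 rose in xpa-1 and 2 in the double mutant against N2, where 3.89% and 4.24% of all probe sets were higher. Their log2 differences ran from -0.18 to 2.27 in xpa-1 and from 0.49 to 1.68 in the double mutant. The higher xpa-1 sum came from replicate 2, the xpa-1 array of the lower BioC level. The sum of 6 sperm genes was 1520 to 1529 in N2, 1084 to 2178 in nth-1, 1119 to 2225 in xpa-1 and 2888 to 3018 in the double mutant. Of these 6, 1 rose in the double mutant against N2, with log2 differences from -0.77 to 1.79. The sum of 4 yolk genes was 65875 to 68439 in N2 and 39560 to 77885 in nth-1. It was 78610 to 84574 in xpa-1 and 31332 to 33384 in the double mutant, where 2 of the 4 fell against N2. The sum of 4 hypodermal genes was 5810 to 6226 in N2 and 6993 to 7510 in the double mutant, where 0 of the 4 passed. No marker of these lists read below 1 on any array. The part of the germ line share in the levels of ung-1, exo-3, apn-1, parp-2 and the genes of synthesis, flap cutting and ligation was not tested.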

How the data were processed

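RNA from mixed-stage populations was hybridized to Affymetrix arrays, 9 in all. In dChip, whose version is not given in the sources used here, the authors applied invariant-set normalization and a model-based summary of perfect-match probes, and deposited the results as log2 expression values, which were used as they stand. Raw array files were not used. The small number of arrays limits the precision. The authors' own fold changes were not used.

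Of 22625 probe sets, 77 controls were left out. Gene symbols came from the platform annotation: 20810 probe sets carry 1 symbol, 843 several and 895 none, and none was named from a probe set with several. Of 86 genes in the lists, 84 could be measured, and ndx-5 and vit-3 were not analysed here. Where several probe sets measure a gene, the one with the highest mean stands for it, which for parp-2 is 172973_at. The others are reported for parp-2, polq-1 and parg-1 only, and those of rfc-2, rpa-1 and ndx-7 are not given. The probe sets of ung-1, exo-3 and parp-1 carry the suffix _s_at, which Affymetrix gives to probe sets shared by several transcripts. The genes named are the 9 members, the 2 most similar genes of each and the partner lists. Members and lists were chosen with earlier results of these data known.

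Tests are those of limma 3.58.1 (R 4.3.3), two-sided, from 1 linear model of all arrays with a term per strain, 5 residual degrees of freedom and variances moderated along their trend with mean expression. P-values were adjusted by Benjamini-Hochberg over all 22548 remaining probe sets, and an adjusted p under 0.05 counts as past the threshold. The same fit was tested on simulated data. Folds are ratios of means of unlogged values. The labels do not say that arrays of a strain came from separate cultures, so p-values measure the spread between these arrays, which may be technical in part. xpa-1 was not tested against nth-1.

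Alternatives were quantile normalization, 32 added before the logarithm, no variance trend, probe sets above the 40th percentile of the mean, the replicate number or the BioC level as a block, fits of the compared strains alone, the other parp-2 probe set, the ratio threshold of 1.8 and leaving out each array. Tables and figures were made with Python 3.11.15 and matplotlib 3.10.9.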

Additional observations from a re-analysis of the deposited data

Results flagged for a closer look

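For 5 probe sets the change in the double mutant differed from the sum of the changes in the single mutants, by the limma interaction term. The interaction was -1.74 (SE 0.25, adjusted p = 0.0012) for ung-1, -2.21 (SE 0.36, adjusted p = 0.0019) for exo-3 and -0.84 (SE 0.26, adjusted p = 0.031) for apn-1. It was -1.78 (SE 0.29, adjusted p = 0.0019) for the 190892_at probe set of parp-2 and 1.32 (SE 0.28, adjusted p = 0.0063) for ndx-4. Of all probe sets, 39.4% passed the same test, so that the count of 4 of 9 genes is close to the background. Where 190892_at stands for parp-2 the count was 5 of 9. With the BioC level as a block none of the 5 passed (adjusted p = 0.069 for ung-1, 0.13 for exo-3, 0.6 for apn-1, 0.12 for 190892_at and 0.31 for ndx-4), where 6.34% of all probe sets did. The apn-1 call was lost in 7 of the 9 cases in which an array was left out. The strains hold 2 or 3 arrays each, too few to look for single arrays that stand apart within a strain by a formal test.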

How the results depend on the processing

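The count of the 9 genes past the threshold was 0 against N2 in nth-1, 1 in xpa-1 and 3 in the double mutant, 4 and 5 in the double mutant against nth-1 and xpa-1, and 4 for the interaction. Leaving out each array in turn gave 0 to 4, 0 to 3, 0 to 5, 2 to 4, 2 to 8 and 3 to 5, in that order, where a strain left with 1 array is assumed to vary like the others. For the double mutant against nth-1 the higher end was the count with all arrays. For the interaction it was also reached without xpa-1 replicate 1. All the higher ends were reached without nth-1 replicate 3, when the share of all probe sets past the threshold also rose. In the same order it was then 26.9%, 28.6%, 26.2%, 50.5%, 50.2% and 53.3%. For the double mutant against N2 this was a rise from 8.64% to 26.2%. Without N2 replicate 1 or 2 that share was 0.723% and 0.599%, and without either double mutant array it was 0.701% and 0.687%. The cause of these shifts was not tested.

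The replicate number as a block gave 4 in nth-1 and 3 in xpa-1 against N2, where 22.5% and 24.0% of all probe sets passed. Only nth-1 has a replicate 3, so this block sets that array apart, much as leaving it out does. Same-numbered arrays of different strains did not deviate together (r from -0.26 to 0.10), so they share only a number. The BioC level as a block gave 0 in xpa-1 against N2, 0 and 2 in the double mutant against nth-1 and xpa-1, and 0 for the interaction. With this block 757, 1077, 5646 and 1429 of all 22548 probe sets passed, in the same order. Fits of the compared strains alone gave 2 in xpa-1 and 6 in the double mutant against N2. For the double mutant against nth-1 such a fit gave 2. Of all probe sets, 18.2%, 43.7% and 28.1% passed in these fits, in that order. The ratio threshold of 1.8 gave 2 in xpa-1.

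Of 950 single values under these alternatives, 817 kept their direction and their side of the threshold, 74 were no longer past it, 31 were newly past it and 28 changed sign, none of the latter past it. With quantile normalization, the sign changed for nth-1 in the nth-1 mutant (-0.03) and in the double mutant against it (0.01), for 172973_at of parp-2 (0.02) and ndx-2 (-0.01) in the latter comparison and for ndx-2 against xpa-1 (-0.05). With the BioC block it changed for nth-1 (-0.63, 0.57, and 0.36 for the interaction), ndx-2 (-0.01 in nth-1 and 0.10 for the interaction), parp-1 (0.08 in the double mutant against nth-1) and 172973_at (-0.28 for the interaction). With the replicate block it changed for ndx-2 (-0.01 in nth-1 and 0.06 for the interaction) and parp-1 (0.19 in the double mutant against nth-1). With each array left out, values that changed sign ranged from -0.10 to 0.21 for nth-1 and -0.01 to 0.14 for ndx-2 in the nth-1 mutant, from -0.14 to 0.18 for ndx-1 in xpa-1, from -0.21 to 0.10 for nth-1 in the double mutant, from -0.68 to 0.20 for parp-1 in the double mutant against nth-1, from 0.00 to 0.10 for ndx-2 against xpa-1, and for the interaction from -0.03 to 0.22 for 172973_at and -0.10 to 0.05 for ndx-2.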

Other observations

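Some partner genes are read by several probe sets, and these did not always move alike. polq-1, the gene of DNA polymerase theta, is represented above by its brightest probe set, which did not pass in xpa-1 (0.03, SE 0.18, adjusted p = 0.95). The 189236_s_at probe set of polq-1 read 8.19 and 8.42 in N2, 9.04, 8.88 and 8.92 in nth-1, 9.52 and 9.70 in xpa-1 and 7.01 and 6.84 in the double mutant. No strains overlapped on it, and it rose in xpa-1 (1.30, SE 0.19, adjusted p = 0.0056) and fell in the double mutant (-1.38, SE 0.19, adjusted p = 0.0056) against N2. Its interaction was -3.33 (SE 0.26, adjusted p = 0.0001), and a dim probe set of the same gene, 179995_at, read 5.62 to 6.16 on all arrays.

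The other probe set of parg-1, 178234_at, read 9.12 and 9.41 in N2, 9.78, 9.70 and 9.77 in nth-1, 9.64 and 9.76 in xpa-1 and 8.73 and 8.62 in the double mutant. It was lower in the double mutant than in nth-1 (-1.07, SE 0.18, adjusted p = 0.0026) and xpa-1 (-1.02, SE 0.19, adjusted p = 0.0047), as was the brighter one, and its interaction was -1.51 (SE 0.26, adjusted p = 0.0026). These probe sets were singled out after their values were seen.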
